A study of Mus musculus with 30 samples.

Results

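Mouse embryonic stem cells that had lived without doxycycline for 3 days and were then given it back for 12 h were compared with the same cells at day 0, before doxycycline was withdrawn. In this clone, NgR, the expression of Nanog depends on doxycycline, so the comparison shows which genes still differed from the starting state once the Nanog signal was near its starting level. The members are the 3 arrays of the group day 3 +12h Dox (pulsed cells) and the 3 arrays of the group day 0 +Dox, 6 of the 30 arrays in the series, with every transcript cluster on the array. A transcript cluster is the set of probes read as 1 transcription unit. Beside them stand the time-matched control, day 3 -12h Dox, kept without doxycycline for the same further 12 h, the group day 3 -Dox, taken when the pulse began, and day 1 +12h Dox, pulsed after 1 day of withdrawal, each with 3 arrays.

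All groups carry the same alleles: NgR was derived from Ainv15 embryonic stem cells, which express the doxycycline-responsive activator rtTA, and the labels name it as 1 Nanog rescue clone. The cells were kept on primary mouse embryonic fibroblasts, with doxycycline at 1 ug/ml before withdrawal, so day 0 cells had not yet been without it. The series holds no cells kept on doxycycline for 3 days, so withdrawal and time in culture cannot be told apart. It also holds no cells in which Nanog is independent of doxycycline, so effects of the drug and of Nanog cannot be told apart either. The labels do not say whether the 3 arrays of a group came from separate cultures, and the p-values then measure only the spread between these arrays.

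Nanog is a homeobox transcription factor of the inner cell mass and of embryonic stem cells, where it works with Pou5f1 (Oct4) and Sox2. It helps to hold the naive state, the ground from which all embryonic lineages can still form, and its level varies from cell to cell in culture. Naive cells also rest on LIF signalling through STAT3 and on factors such as Esrrb, Klf4, Tbx3 and Zfp42, while the factor Otx2 marks the passage towards the formative epiblast.

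Signals are log2 intensities per cluster, and a difference is the pulsed mean minus the day 0 mean with its standard error (SE). The 10 embryonic stem cell markers looked at were bright in both groups, from 9.99 (Esrrb) to 13.55 (Dppa5a) in pulsed cells and from 10.26 (Sall4) to 13.52 (Dppa5a) at day 0, at or above the percentile 87.4 of all clusters. Arrays of the same group correlated at 0.9965 or more in pulsed cells, at 0.9953 or more in the time-matched controls and at 0.9958 or more at day 0. Array medians ran from 7.395 to 7.413 in the pulsed group and from 7.354 to 7.366 at day 0. The interquartile range of the array values was 2.506 to 2.615 in pulsed cells, 2.563 to 2.835 in the time-matched controls and 2.496 to 2.644 at day 0.

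Nanog (cluster 10541524) had a signal of 10.89, 11.02 and 10.99 in the pulsed arrays, against 11.04, 11.05 and 11.01 at day 0. The labels do not say whether its probes read the endogenous gene, the doxycycline-driven copy or both. The pulsed arrays overlapped the day 0 arrays, and the difference was -0.07 ± 0.08 (95% interval -0.23 to 0.10, limma adjusted p = 0.622). Without the pulse, the time-matched controls stood at 10.12, 10.18 and 10.21, and the cells at the start of the pulse at 10.48, 10.48 and 10.57. Each pulsed array therefore lay above every array of both groups without doxycycline, while the interval against day 0 still allowed a difference of -0.23.

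**Figure D1:**
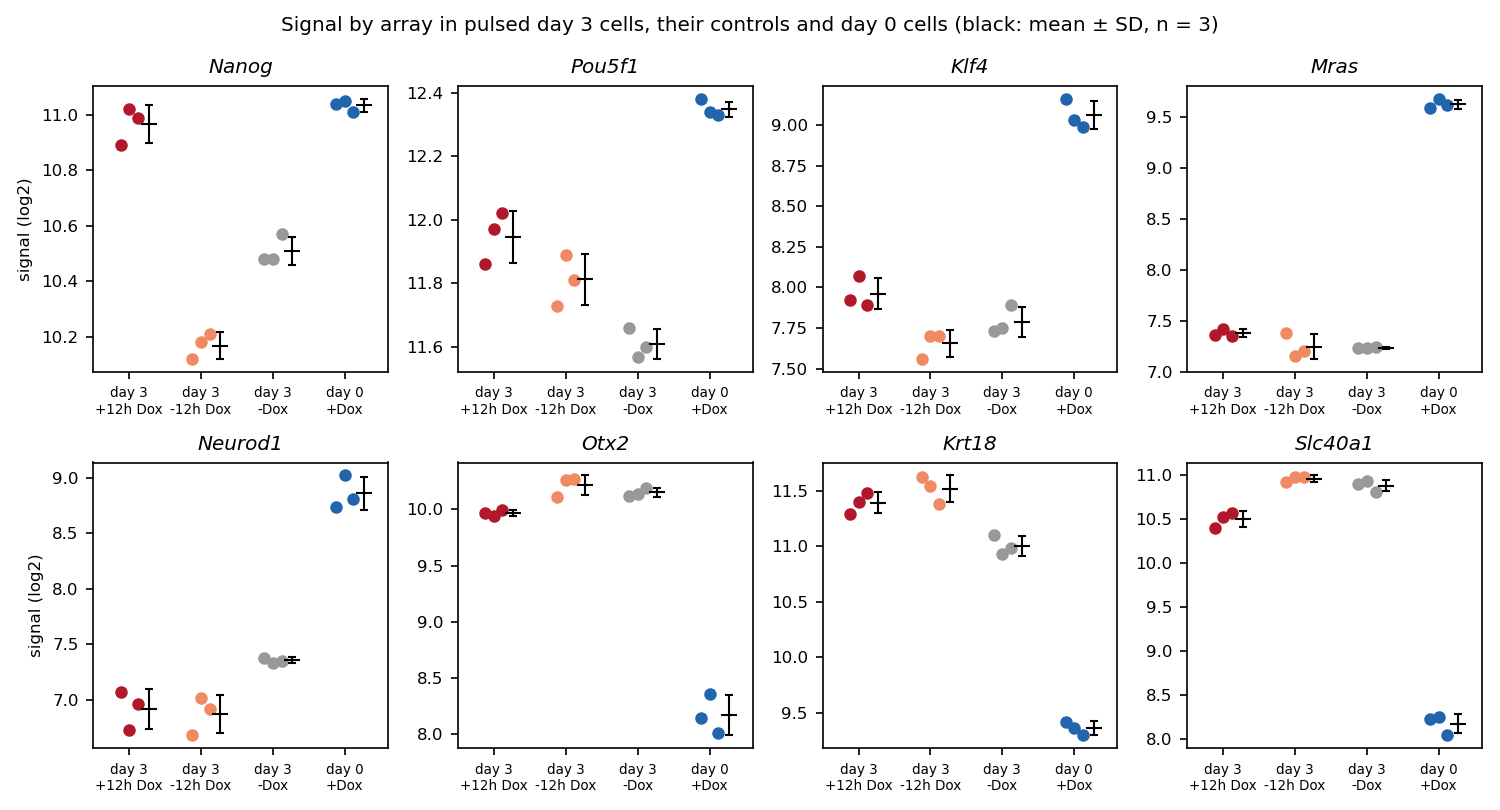
Signal (log2, vertical axis) of 8 genes in each array of day 3 +12h Dox, day 3 -12h Dox, day 3 -Dox and day 0 +Dox, with the group mean ± SD (n = 3) in black. Nanog of the pulsed arrays overlapped day 0. Klf4, Mras, Neurod1, Otx2, Krt18 and Slc40a1 of the pulsed arrays lay near the 2 other day 3 groups and away from day 0. The Pou5f1 means were 11.95 in pulsed cells, 12.35 at day 0, 11.81 in day 3 -12h Dox and 11.61 in day 3 -Dox. The vertical axes do not start at 0.

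Although Nanog was near its day 0 level, the pulsed cells differed from day 0 at many genes. Of 23385 clusters tested, 5917 (25.3%) were called at a limma adjusted p under 0.05, 3360 (14.4%) of them higher in pulsed cells and 2557 (10.9%) lower. Most differences were small: the median size of a called difference was 0.376 (log2), 4839 called clusters differed by less than 1.5-fold, and 219 differed by at least 2-fold, 148 higher and 71 lower. Several clusters can stand for 1 gene: the 148 held 103 different genes among clusters with 1 symbol, and the 71 held 55. The 3 pulsed arrays did not overlap the 3 day 0 arrays in 5838 of the called clusters, against 9894 (42.3%) of all clusters tested. Dim clusters were called less often: with the dimmest 40% left out, 5731 of the remaining clusters were called. The 25.3% is therefore a low standard for lists of bright genes, and the housekeeping list below had 44.4% called. The median over all clusters was 0.0118. Centring each array on its median moved this to -0.0301 and turned the split to 2365 higher and 2910 lower, so the share of higher calls was 44.8% there, against 56.8% as deposited.

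The largest rises were those of Slc40a1, Car4, Copz2, Meiob and Krt18. Slc40a1 (cluster 10354374), which encodes ferroportin, the iron exporter of the cell membrane, had 10.40, 10.52 and 10.57 in the pulsed arrays, against 8.22, 8.25 and 8.04 at day 0, 5.01-fold higher (2.32 ± 0.083, adjusted p = 4.01e-17). Car4, a carbonic anhydrase held on the outer cell membrane, measured 10.12, 10.32 and 10.32 in the pulsed arrays, against 8.02, 8.22 and 7.88 at day 0. The difference was 2.21 ± 0.083. Both genes were picked for large differences without overlap of the arrays, so their separation follows from the choice. Copz2, a subunit of the coatomer that coats Golgi vesicles, was 4.21-fold higher, and Meiob, a single-strand DNA-binding protein of meiosis, 4.19-fold. Meiob remained a dim gene, at 6.23, 6.18 and 6.18 in the pulsed arrays, against 3.81, 4.68 and 3.89 at day 0. The rises that followed were those of Krt18, Krt7, Igf2 (1.85), Otx2, Adgrl2, an adhesion receptor (1.74), Gbe1, the glycogen branching enzyme (1.71), and the interferon-inducible genes Gbp3 (1.70) and Ddx60 (1.63). Adgrl2 is represented by 8 clusters, which were all called and higher, by 0.56 to 1.83.

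Among the genes that fell, Mras (cluster 10595981), a Ras-related GTPase, had 7.36, 7.42 and 7.35 in the pulsed arrays, against 9.59, 9.68 and 9.62 at day 0. That made it 4.76-fold lower (-2.25 ± 0.074, adjusted p = 1.15e-17), and its second, dimmer cluster fell by 0.84. Neurod1, a basic helix-loop-helix factor of neurons and endocrine cells, measured 7.07, 6.73 and 6.96 in the pulsed arrays, against 8.74, 9.02 and 8.81 at day 0, a difference of -1.94 ± 0.11. Ccnd1, which encodes cyclin D1 of the G1 phase, stood at 8.79, 8.89 and 8.86 in the pulsed arrays, against 10.56, 10.70 and 10.68 at day 0 (-1.80 ± 0.08). The naming rule also took these 3 genes for large differences without overlap, so their separation from day 0 follows from the choice. Differences between -1.80 and -1.37 were called for Serpinb6c, a serine protease inhibitor, Tubb3, the neuronal beta-tubulin, Spink1, a trypsin inhibitor, Eras, the Ras of embryonic stem cells, Gng3, a G protein gamma subunit, Khdc3, a component of the maternal complex of the egg, Calml4, a calmodulin-like protein, the small RNA Rny1, and Vegfc, a growth factor of lymphatic vessels.

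**Figure D2:**
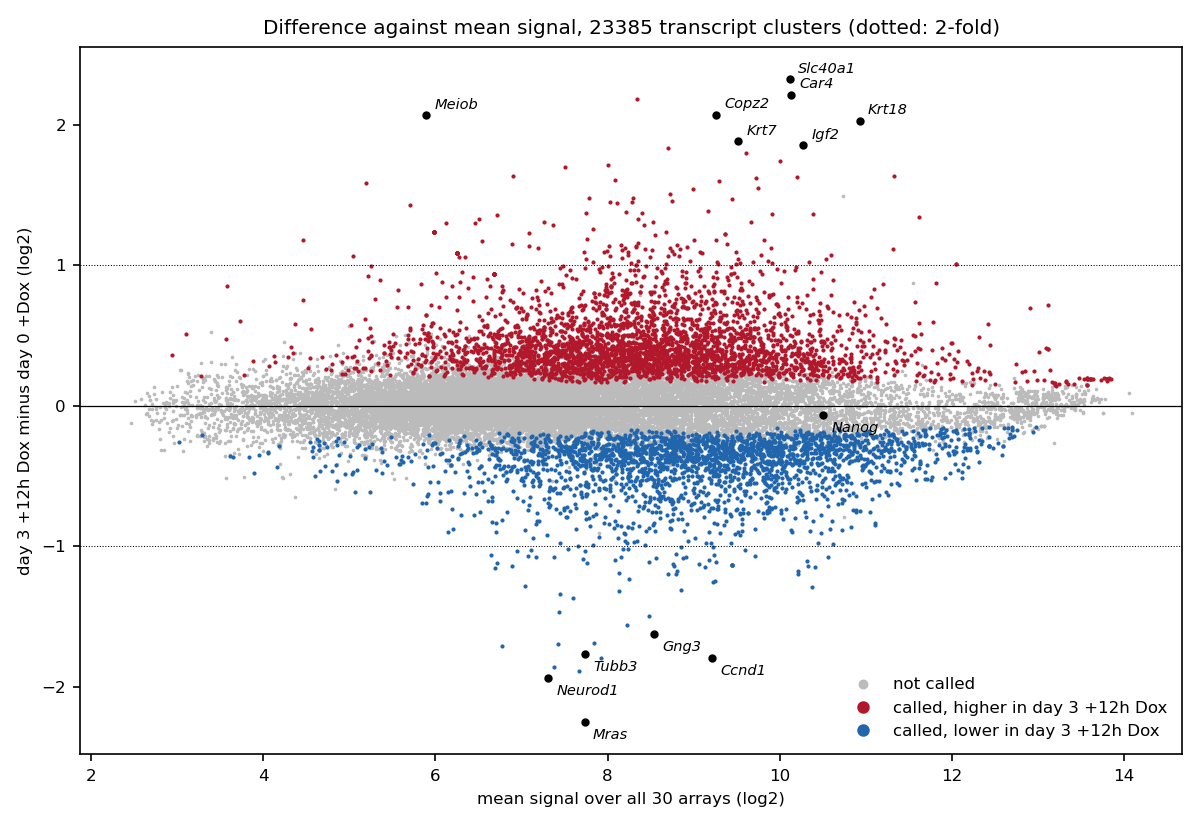
Difference between day 3 +12h Dox and day 0 +Dox (log2, vertical axis) against the mean signal over all 30 arrays (log2, horizontal axis) for the 23385 clusters tested. Red points were called higher and blue points called lower in pulsed cells (5917 in all), grey points were not called, and Nanog lay at -0.07 among them.

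Most genes of naive pluripotency were lower in the pulsed cells. Of 27 measured, 16 fell, 1 rose and 10 were not called, with a median difference of -0.34 against 0.01 over all clusters. The share called was 63%, against 25.3% of all clusters. The list includes Nanog, whose level depends on doxycycline in this clone. Eras had 7.83, 7.68 and 7.91 in the pulsed arrays, against 9.23, 9.46 and 9.79 at day 0 (-1.69 ± 0.12, adjusted p = 4.45e-11). Nr0b1 (Dax1), a nuclear receptor that binds Oct4, had 10.12, 10.43 and 10.31 in the pulsed arrays, against 11.59, 11.64 and 11.51 at day 0 (-1.29 ± 0.11). Klf4, a zinc-finger factor downstream of LIF, measured 7.92, 8.07 and 7.89 in the pulsed arrays, against 9.16, 9.03 and 8.99 at day 0, 2.14-fold lower (adjusted p = 1.52e-09). In all 3 genes the pulsed arrays lay below every day 0 array, which the choice of large called differences favours. Calcoco2, named for an autophagy receptor in human, fell by 1.18, and Zfp42 (Rex1), the classical naive reporter gene, by 0.86.

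Other naive transcription factors differed by smaller amounts or were not called. Esrrb, an orphan nuclear receptor that is a target of Nanog in mouse, had 9.97, 10.01 and 9.99 in the pulsed arrays, against 10.51, 10.45 and 10.37 at day 0 and fell by 0.45 ± 0.11 (adjusted p = 0.00198). Klf5 fell by 0.56 ± 0.078 and Tbx3 by 0.53 ± 0.067. Prdm14, a repressor that shields the naive state, differed by -0.20 ± 0.074 (adjusted p = 0.0475), and Nr5a2 by -0.29 ± 0.092 (adjusted p = 0.0187), and both calls were lost when single arrays of either group were left out. Klf2 (0.04 ± 0.075) and Tfcp2l1 (0.06 ± 0.079) were not called, and their pulsed and day 0 arrays overlapped. Dppa3 (Stella), a maternal factor also expressed in naive cells, was the member that rose: it had 8.98, 9.06 and 9.39 in the pulsed arrays, against 8.37, 8.35 and 8.50 at day 0 (0.74 ± 0.14, adjusted p = 0.000277).

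Among the factors shared by naive and primed cells, Pou5f1 was slightly lower and Sox2 and Sall4 were not called. Pou5f1 had 11.86, 11.97 and 12.02 in the pulsed arrays, against 12.38, 12.34 and 12.33 at day 0 and fell by 0.40 ± 0.088 (adjusted p = 0.00103). Sox2 measured 12.02, 12.02 and 11.96 in the pulsed arrays, against 12.09, 12.19 and 12.05 at day 0, a difference of -0.10 ± 0.08 that was not called (95% interval -0.27 to 0.06, adjusted p = 0.408). Sall4, a zinc-finger partner of both, differed by 0.10 ± 0.071 (adjusted p = 0.379). Of 22 general pluripotency genes, 8 fell and 2 rose, with a median of -0.11 (45.5% called, against 25.3% of all clusters). The falls were small, from Trim71 at -0.21 to Ubtf, an activator of ribosomal RNA transcription, at -0.56. The 2 that rose, Epcam (0.59) and Cdh1 (0.26), encode adhesion proteins of epithelia, and Cdh1 was not called without replicate 2 of the pulsed cells, without replicate 3 of day 0 or with median centring.

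Formative and primed epiblast genes moved both ways. Otx2 (cluster 10419356) had 9.97, 9.94 and 9.99 in the pulsed arrays, against 8.14, 8.36 and 8.01 at day 0, 3.48-fold higher (1.80 ± 0.11, adjusted p = 2.52e-12). Fgf5, the fibroblast growth factor of the epiblast, measured 7.70, 7.99 and 7.91 in the pulsed arrays, against 7.27, 7.36 and 7.53 at day 0 (0.48 ± 0.11, adjusted p = 0.00107). Cldn6, a tight junction protein of epiblast and endoderm, rose by 0.87 and Wnt8a, a Wnt ligand of the early embryo, by 0.53. Other genes of the same list fell: Etv4, an ETS factor (-1.0), Zic5 (-0.87) and Zic2 (-0.76), zinc-finger factors, and Tcf15, a helix-loop-helix factor (-0.66). Zic5 has a second cluster, which differed by -0.12 and was not called. In all, 5 of 22 rose and 8 fell, with a median of -0.03 (59.1% called, against 25.3% of all clusters). Dnmt3b (-0.11 ± 0.1) and Pou3f1 (0.14) were not called.

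Keratins of simple epithelia led the lineage genes. Krt18 (cluster 10427075) had 11.29, 11.40 and 11.48 in the pulsed arrays, against 9.42, 9.37 and 9.30 at day 0 (2.03 ± 0.075, adjusted p = 6.49e-17). Its filament partner Krt8 measured 11.71, 11.72 and 11.71 in the pulsed arrays, against 10.14, 10.03 and 10.08 at day 0. Krt7 had 9.59, 9.53 and 9.69 in the pulsed arrays, against 7.75, 7.67 and 7.73 at day 0. Krt19 had 9.86, 9.82 and 10.02 in the pulsed arrays, against 8.39, 8.40 and 8.05 at day 0. In each of the 4 the pulsed arrays lay above every day 0 array, which the choice of large called differences favours. The folds were 3.07 for Krt19, 3.1 for Krt8, 3.69 for Krt7 and 4.08 for Krt18. Of 20 trophectoderm genes, the list to which these keratins were assigned, 10 rose and 1 fell, with a median of 0.24. The share called was 55%, against 25.3% of all clusters. Peg10, an imprinted gene of retrotransposon origin needed by the placenta, rose by 1.34, Plac1 by 0.61 and Plet1 by 0.59. Of the transcription factors on the list, Gata3 rose by 0.49, Cdx2 differed by 0.25 ± 0.092 (adjusted p = 0.0496) with a call that was lost without each of 5 of the 6 arrays, Tfap2c fell by 0.25, and Eomes (0.18), Elf5 (0.04) and Hand1 (-0.06) were not called.

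In the list of extraembryonic endoderm, 9 of 27 genes rose and 1 fell, with a median of 0.18 (37% called, against 25.3% of all clusters). Lrp2 (megalin), an endocytic receptor, had 9.40, 9.51 and 9.43 in the pulsed arrays, against 8.12, 8.10 and 7.96 at day 0 (1.39 ± 0.089, adjusted p = 9.1e-12). Srgn, a secretory granule proteoglycan, rose by 1.11 and Dab2, an adaptor for endocytosis, by 1.01, although a second, dim cluster of Dab2 differed by -0.10 and was not called. Gata6, the factor that starts the primitive endoderm programme, rose by 0.46 ± 0.087 at a low signal, with 7.4, 7.62 and 7.62 in the pulsed arrays, against 7.10, 7.13 and 7.03 at day 0. Gata4 (0.20 ± 0.11, adjusted p = 0.242) and Sox17 (-0.10 ± 0.11, adjusted p = 0.564), which follow it in the embryo, were not called. Lama1, a basement membrane laminin, fell by 0.72. The mean level of the list was 7.96 to 8.01 over the pulsed arrays and 7.72 to 7.75 over the day 0 arrays. In whole cultures, a change in the number of cells of a type and a change in RNA per cell cannot be told apart.

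Neuroectoderm and neuronal genes were lower for 12 of 21 measured members and higher for none, with a median of -0.50 (57.1% called). Tubb3 had 7.45, 7.50 and 7.25 in the pulsed arrays, against 9.17, 9.19 and 9.15 at day 0 (-1.77 ± 0.085, adjusted p = 2.86e-14), and Gng3 had 8.19, 8.54 and 8.53 in the pulsed arrays, against 10.08, 10.00 and 10.06 at day 0. Ina, a neuronal intermediate filament, fell by 1.20, Uchl1, a ubiquitin hydrolase of neurons, by 1.13, and Stmn2, a microtubule regulator of neurites, by 0.78. The early neural factors Sox1 (-0.09) and Zic1 (-0.11) and the filament gene Nes (-0.24) were not called. Of 21 primitive streak and mesoderm genes, 1 fell, Bmp4 at -0.54, and none rose (4.76% called, against 25.3% over all clusters). Mixl1 (-0.04), Eomes (0.18) and Mesp1 (0.04) were among the 20 not called, and T (brachyury) was not analysed here.

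Markers of the feeder fibroblasts were higher for 9 of 29 genes and lower for 2, with a median of 0.05. The share called was 37.9%, against 25.3% of all clusters. The mean level of the list was 7.72 to 7.79 in pulsed cells and 7.60 to 7.66 at day 0. Thbs1 (0.82), Fn1, fibronectin (0.71), Acta2, smooth muscle actin (0.68), Tagln (0.55) and Pdgfrb (0.54) led the rises. The collagen Col1a1 had 8.42, 8.40 and 8.43 in the pulsed arrays, against 8.24, 8.15 and 8.28 at day 0, a difference of 0.20 ± 0.074 that was not called (adjusted p = 0.0523), while Col1a2 rose by 0.44. Dcn (0.03), Lum (-0.22), Postn (0.18) and Thy1 (-0.16) were not called, while Mmp2 rose by 0.30 and Loxl1 by 0.22. The scale of the arrays has no 0, so no marker can be said to be absent. Igfbp7 fell by 0.75 and Vim by 0.29, with a call for Vim that was lost without replicate 1 of the pulsed cells. Col4a1, Col4a2 and Sparc of the endoderm list are matrix genes that fibroblasts express too, and the part of feeder RNA in this and the other lists was not tested.

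Epithelial adhesion genes were higher for 11 of 18 members and lower for 3, with a median of 0.44. The share called was 77.8%, against 25.3% of all clusters. Cldn6 and Cldn7, claudins of the tight junction, rose by 0.87 and 0.82, Dsp, the desmosomal plaque protein, by 0.76, Epcam by 0.59, Tjp1 by 0.57 and Ocln by 0.54. The falls were those of Krt42 (-0.62), Gjb5 (-0.39) and Cdh3 (-0.28). Cdh2, the mesenchymal cadherin, differed by -0.02 and was not called.

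**Figure D3:**
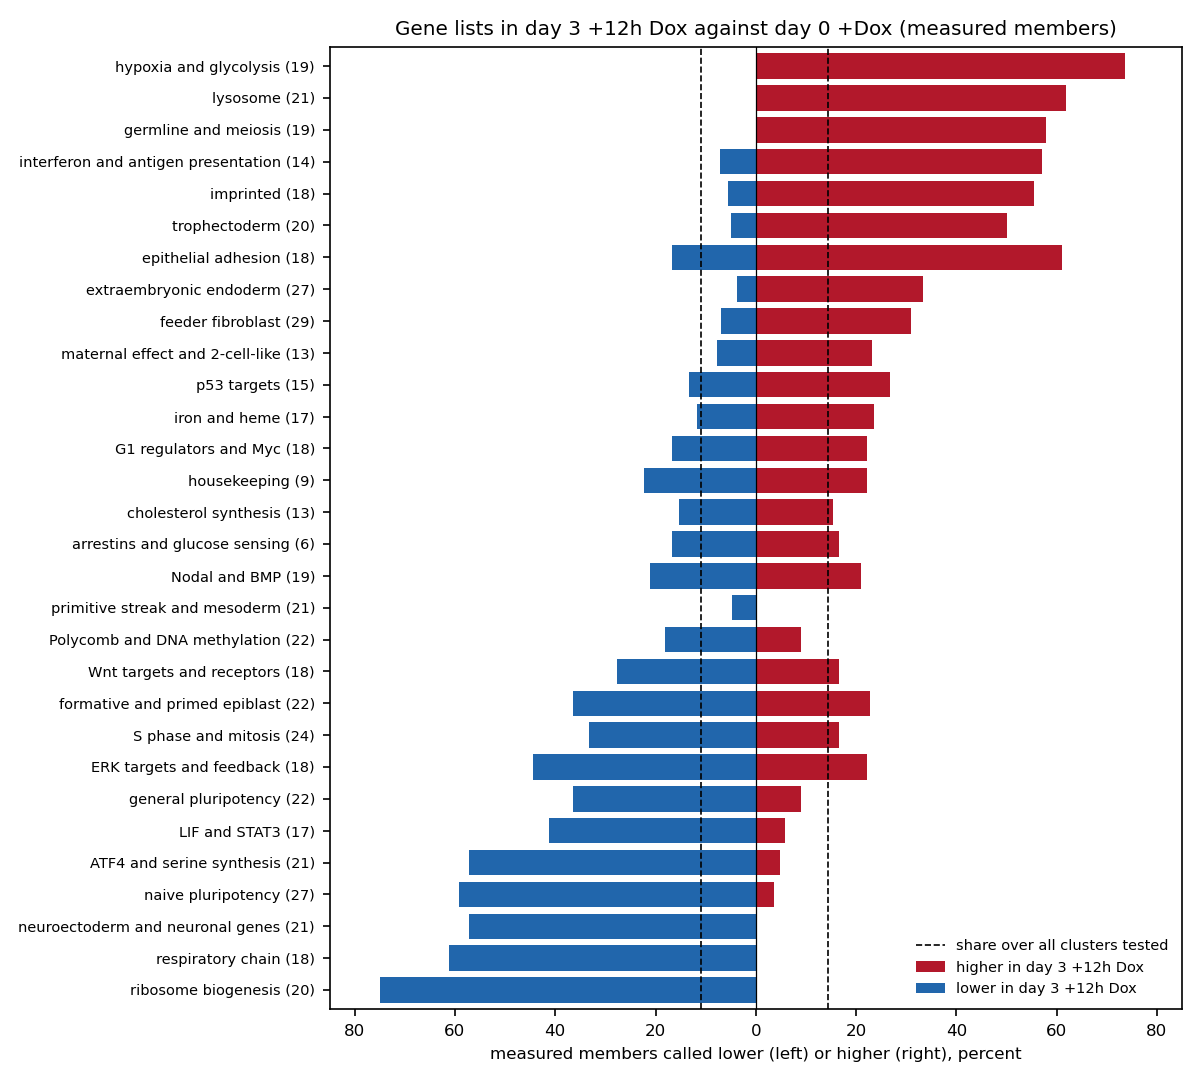
Share of the measured members of each of 30 gene lists that were called higher (red, right) or lower (blue, left) in day 3 +12h Dox than in day 0 +Dox, in percent, with the number measured in brackets. Dashed lines give the shares over all clusters tested, 14.4% higher and 10.9% lower. Hypoxia and glycolysis had 14 of 19 members higher and none lower, and ribosome biogenesis 15 of 20 lower and none higher.

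More targets of LIF and of ERK fell than rose. Of 17 genes of the LIF and STAT3 pathway, 7 fell and 1 rose, with a median of -0.15 (47.1% called, against 25.3% of all clusters). Myc, the growth factor-responsive oncogene, had 7.90, 8.24 and 8.40 in the pulsed arrays, against 9.26, 9.37 and 9.15 at day 0 (-1.08 ± 0.13, adjusted p = 3.75e-07), and Lifr, the LIF receptor itself, had 8.86, 8.78 and 8.80 in the pulsed arrays, against 9.56, 9.49 and 9.52 at day 0 (-0.71 ± 0.097). Gbx2, a homeobox target of STAT3, fell by 0.86 and the feedback inhibitor Socs3 by 0.27, whereas Stat3 (-0.15) and Il6st (0.21) were not called. Of 18 ERK targets and feedback genes, 8 fell and 4 rose, with a median of -0.23 (66.7% called). Spry4 and Spred1, feedback inhibitors of ERK, fell by 0.66 and 0.66, and Egr1, an immediate early factor, by 0.60. Dusp6, the phosphatase most often read as an ERK output, differed by -0.20 and was not called, and Ier3 (0.74), Dusp4 (0.44) and Spry1 (0.36) rose. The lists overlap, since Myc and Ier3 stand in both and Ccnd1 stands in the ERK, Wnt and G1 lists.

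Nodal, BMP and Wnt genes showed no common direction. In the Nodal and BMP list, 4 of 19 rose and 4 fell (42.1% called, against 25.3% of all clusters). Id3, a BMP target, fell by 0.78, Bmp4 by 0.54 and Smad7, a feedback inhibitor, by 0.49, while Nodal (-0.04), Lefty1 (0.17), Lefty2 (0.21) and Tdgf1 (0.19) were not called. The 4 rises, led by Skil (0.35), came down to 1 when replicate 2 or 3 of the pulsed cells or replicate 1 or 3 of day 0 was left out. Of 18 Wnt targets and receptors, 5 fell and 3 rose (44.4% called). Ccnd1 led the falls, with the receptor Fzd5 at -0.71 and Notum, a secreted inhibitor, at -0.59. The receptor Fzd7 rose by 1.01 ± 0.085 (adjusted p = 1.24e-09), and the direct targets Axin2 (0.15), Lef1 (0.08) and Sp5 (-0.12) were not called.

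Energy metabolism genes moved in opposite directions in 2 lists. Of 19 hypoxia and glycolysis genes, 14 rose and none fell, with a median of 0.46 (73.7% called, against 25.3% of all clusters). Bnip3, a mitochondrial protein induced by low oxygen, had 11.87, 11.98 and 11.93 in the pulsed arrays, against 10.77, 10.85 and 10.80 at day 0 (1.12 ± 0.075, adjusted p = 1.74e-11). P4ha1, a collagen prolyl hydroxylase, measured 10.50, 10.46 and 10.47 in the pulsed arrays, against 9.45, 9.53 and 9.48 at day 0 (0.99 ± 0.087). The oxygen-sensing hydroxylase Egln3 rose by 0.96, Pgm1, which links glycogen to glycolysis, by 0.95, the kinase Pdk1, which restrains pyruvate entry into mitochondria, by 0.79, and the glucose transporters Slc2a1 and Slc2a3 by 0.69 and 0.72. Hk1 (0.05), Hk2 (0.18), Ldha (0.08), Pkm (0.17) and Vegfa (0.20) were not called. Gbe1, the glycogen branching enzyme outside this list, rose by 1.71 ± 0.16.

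Respiratory chain genes were lower for 11 of 18 members and higher for none, with a median of -0.26. The share called was 61.1%, against 25.3% of all clusters. Without replicate 1 of the pulsed cells, 7 of the 18 fell. Ndufa1, of complex I, had 9.48, 9.37 and 9.56 in the pulsed arrays, against 10.36, 10.50 and 10.64 at day 0 (-1.03 ± 0.13, adjusted p = 1.29e-06), and Cox5a, of complex IV, had 10.83, 10.82 and 10.99 in the pulsed arrays, against 11.57, 11.62 and 11.72 at day 0 (-0.76 ± 0.085). The subunits Sdha (-0.04), Uqcrc1 (-0.04) and Atp5b (0.01) were not called. Lysosomal genes were higher for 13 of 21 members and lower for none, with a median of 0.45 (61.9% called). Hexa, a hexosaminidase subunit, had 10.70, 10.61 and 10.73 in the pulsed arrays, against 9.85, 9.86 and 9.84 at day 0 (0.83 ± 0.069, adjusted p = 1.19e-09), Lamp2, a lysosomal membrane protein, rose by 0.82, Npc1, a cholesterol exporter of the lysosome, by 0.74, and the protease genes Ctsl and Ctsb by 0.58 and 0.55.

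Genes of serine synthesis and of the ATF4 response to amino acid shortage were lower for 12 of 21 members and higher for 1. Their median was -0.42, with 61.9% called, against 25.3% of all clusters. Slc7a3, a transporter of cationic amino acids, had 10.27, 10.27 and 10.23 in the pulsed arrays, against 11.18, 11.16 and 11.13 at day 0 (-0.90 ± 0.083, adjusted p = 5.91e-09). Psat1 and Psph, enzymes of serine synthesis, fell by 0.85 and 0.88, Phgdh, its first enzyme, by 0.82, and Mthfd2, of mitochondrial folate metabolism, by 0.89. Atf4 itself fell by 0.64 and its target Trib3 by 0.75. Asns (0.06) and Ddit3 (0.12), also targets of ATF4, were not called, and Vldlr rose by 0.52.

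Promoters of this list were searched for TGATGNAA on both strands, the core letters of the amino acid response element that ATF4 complexes bind. RefSeq promoters of GRCm38.p6, 250 bases before to 50 after a gene's start, hold these letters in 3.97% of 32851 cases, and 4.51% of 27025 genes have at least 1 such promoter. They were present for 6 of the 17 listed genes with a promoter in the table, and for 2 of the 9 that fell. Chac1, a glutathione-degrading enzyme that fell by 0.59, and Vldlr, which rose, are shown since the same letters stand before genes that moved in opposite directions (match in capitals, each 5′ to 3′ on the gene's own strand). In both, the match lies on the opposite strand, so the capitals are its reverse complement.
Chac1 promoter, chr2:119351029-119351076, plus strand: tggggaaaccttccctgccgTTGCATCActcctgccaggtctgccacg
Vldlr promoter, chr19:27216800-27216847, plus strand: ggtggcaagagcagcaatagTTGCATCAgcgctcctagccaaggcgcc

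Among the smaller metabolic lists, iron and heme genes had 4 of 17 members higher and 2 lower (35.3% called, against 25.3% of all clusters). Beside Slc40a1, the transferrin receptor Tfrc rose by 0.59 and Blvrb, a biliverdin reductase, by 0.57, and the ferritin genes Fth1 (-0.15) and Ftl1 (-0.06) were not called. Hmox1, heme oxygenase, fell by 0.36, a call lost without replicate 1 of the pulsed cells or replicate 1 of day 0. Txnip, an arrestin-fold protein induced by glucose, rose by 0.73 ± 0.074 (adjusted p = 2.99e-08), and its paralogues Arrdc3 (0.20) and Arrdc4 (-0.03) were not called. In cholesterol synthesis, 2 of 13 genes rose and 2 fell, a share of 30.8% called, near the 25.3% of all clusters, with Idi1 (-0.45) and Mvd (-0.26) lower and Cyp51 (0.31) and Sc5d (0.25) higher. Neither rise was called without replicate 2 or 3 of the pulsed cells, without replicate 3 of day 0 or with median centring. The call of Idi1 was lost without replicate 1 of the pulsed cells or replicate 2 of day 0, and its second cluster differed by -0.31 and was not called. Of 9 housekeeping genes, 2 rose and 2 fell: Actb (0.09) and Ppia (-0.03) were not called, while B2m rose by 1.18 and Hprt fell by 0.62. The other 2 called were Pgk1 (0.41) and Tbp (-0.20), and the share called was 44.4%. The call of Tbp was lost without replicate 1 or 3 of the pulsed cells, without any 1 of the day 0 arrays or with median centring.

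Ribosome biogenesis factors were lower for 15 of 20 members and higher for none, with a median of -0.24 (75% called). Rrp9, a factor of the small subunit processome, had 9.77, 9.63 and 9.65 in the pulsed arrays, against 10.36, 10.43 and 10.31 at day 0 (-0.69 ± 0.08, adjusted p = 2.68e-07), and Polr1e, of RNA polymerase I, fell by 0.53, while Ncl (-0.06) and Npm1 (0.06) were not called. In the list of S phase and mitosis, 8 of 24 genes fell and 4 rose (50% called, against 25.3% of all clusters). Ccne1, cyclin E1, fell by 0.60, the replication helicase gene Mcm2 by 0.34, and the mitotic activator gene Cdc20 fell by 0.37. Bub1, of the mitotic checkpoint (0.63), and Mki67, of proliferating cells (0.38), rose, and the mitotic genes Plk1 (-0.16), Aurka (-0.05), Ccnb2 (0.08) and Cdk1 (-0.12) were not called. Of 18 regulators of G1 and Myc genes, Ccnd1, Myc and Mycn (-0.58) fell, and the inhibitors of cell cycle entry Rb1 (0.42), Cdkn1b (0.39), Cdkn2b (0.29) and Cdkn2a (0.27) rose. A second cluster of Cdkn1b differed by 0.08 and was not called, and the calls of Rb1 and Cdkn2a were lost without some single arrays. Of 15 p53 targets, Polk (0.49), Pmaip1 (0.49), Tnfrsf10b (0.45) and Sesn1 (0.27) rose, Sesn2 (-0.51) and Btg2 (-0.25) fell, and Mdm2 (0.19) and Ccng1 (0.09) were not called. The call of Sesn1 was lost without each of 5 of the 6 arrays and with median centring. That of Btg2 was lost without replicate 1 or 2 of the pulsed cells or replicate 1 of day 0. The share called was 38.9% in the G1 list and 40% in the p53 list.

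Germline genes were higher for 11 of 19 members and lower for none, with a median of 0.32 (57.9% called). Beside Meiob, Smc1b, the meiotic cohesin subunit, had 8.48, 8.22 and 8.27 in the pulsed arrays, against 7.15, 7.28 and 7.27 at day 0 (1.09 ± 0.14, adjusted p = 1.41e-06), and Tdrd12, Stag3 and Dmc1 rose by 0.65, 0.63 and 0.62. Dazl (-0.16), Sycp3 (-0.07) and Sycp1 (-0.07) were not called. Imprinted genes were higher for 10 of 18 members and lower for 1 (61.1% called, against 25.3% of all clusters). Igf2, a growth factor expressed from the paternal allele, had 10.24, 10.29 and 10.34 in the pulsed arrays, against 8.49, 8.33 and 8.48 at day 0 (1.85 ± 0.11, adjusted p = 3.69e-12). Sgce and Peg10, which neighbour each other in the mouse genome, rose by 1.46 and 1.34, Peg3 by 1.04 and the noncoding Meg3 by 0.90, while Cdkn1c (0.03) and Dlk1 (-0.06) were not called. Phlda2 fell by 0.89. Of 13 maternal effect and 2-cell genes, Khdc3 fell (-1.56), and Obox6 (0.84), Dppa3 and Tle6 (0.35) rose, with a second cluster of Obox6 at -0.31 and not called. The share called, 30.8%, lay near the 25.3% of all clusters.

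Regulators of chromatin and of DNA methylation stood out little: of 22 on the list, 4 were called lower and 2 higher, a share of 27.3% called that lay near the 25.3% of all clusters. Eed, a core Polycomb subunit, fell by 0.55 and Dnmt3a, a de novo DNA methyltransferase, by 0.47, whereas Ezh1, a Polycomb methyltransferase, rose by 0.49. A second, dim cluster of Eed differed by -0.005 and was not called. Ezh2 (0.01), Suz12 (0.20), Tet1 (-0.09) and Dnmt3l (-0.08) were not called.

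Genes of interferon signalling and antigen presentation were higher for 8 of 14 members and lower for 1, with a median of 0.30. The share called was 64.3%, against 25.3% of all clusters. Irgm1, an interferon-inducible GTPase, had 7.81, 8.01 and 8.17 in the pulsed arrays, against 6.83, 6.70 and 6.70 at day 0 (1.26 ± 0.15, adjusted p = 2.88e-07). B2m, the light chain of MHC class I, measured 8.98, 9.24 and 9.20 in the pulsed arrays, against 8.0, 8.06 and 7.83 at day 0 (1.18 ± 0.14). Psmb8, an immunoproteasome subunit, rose by 0.93, Irf1, an interferon-responsive factor, by 0.92, and Tap1, the peptide transporter, by 0.72. A second, dimmer cluster of Irf1 differed by 0.02 and was not called. Of other interferon-induced genes, Ifit1 (0.14), Irf7 (0.05) and Ifitm3 (-0.09) were not called, and Ifitm2 fell by 0.59.

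A pair of GAAA blocks separated by 2 bases of any kind, the core of the interferon-stimulated response element, stood on either strand in 3.44% of the 32851 RefSeq promoters and for 3.99% of the 27025 genes. The pair was found for 8 of the 14 listed genes, which included 5 of the 8 that rose, the 1 that fell and uncalled Ifit1. The stretches shown hold a match in capitals for 3 genes that rose and for Ifitm2, which fell, and in Stat2 it lies on the opposite strand. In Irgm1 another match overlaps the one in capitals and runs on into the lower-case letters after it. A match describes letters and not a bound site.
B2m promoter, chr2:122147528-122147577, plus strand: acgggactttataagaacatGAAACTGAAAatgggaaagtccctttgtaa
Irgm1 promoter, chr11:48871421-48871470, minus strand: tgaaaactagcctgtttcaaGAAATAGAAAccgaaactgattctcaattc
Stat2 promoter, chr10:128270256-128270305, plus strand: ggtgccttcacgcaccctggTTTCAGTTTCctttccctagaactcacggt
Ifitm2 promoter, chr7:140955978-140956027, minus strand: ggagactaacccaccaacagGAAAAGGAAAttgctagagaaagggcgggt

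Clusters of microRNA genes were higher at 2 loci known from embryonic stem and epiblast cells. Of 299 clusters of single microRNA genes, 56 rose and 3 fell (19.7% called, against 25.3% over all clusters), at a median signal of 6.18. These clusters read the hairpin or its primary transcript, not the mature microRNA. All 5 measured genes of the Mir302 locus rose (RefSeq GRCm38.p6, chr3:127545228-127545807, plus strand), by 0.85 to 1.58. All 5 of the Mir106a locus, a paralogue of the Mir17 locus, rose as well (chrX:52741693-52742567, minus strand), by 0.40 to 1.36. Genes of a locus lie close together on 1 strand and may share a transcript, so their calls are not independent. Mature sequences were found in RefSeq for 54 of the 59 called. Those of 10 members of microRNA families are shown with their seed, bases 2 to 8, in capitals. Among them, AAAGUGC and AUUGCAC are each shared by members on different chromosomes.
mmu-miR-302b-3p: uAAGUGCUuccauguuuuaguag
mmu-miR-302d-3p: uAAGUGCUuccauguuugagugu
mmu-miR-302c-3p: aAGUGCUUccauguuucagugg
mmu-miR-106a-5p: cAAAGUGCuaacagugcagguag
mmu-miR-20b-5p: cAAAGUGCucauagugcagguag
mmu-miR-17-5p: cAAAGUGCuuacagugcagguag
mmu-miR-367-3p: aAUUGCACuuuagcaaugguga
mmu-miR-363-3p: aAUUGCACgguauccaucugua
mmu-miR-15b-5p: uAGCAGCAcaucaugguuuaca
mmu-miR-16-5p: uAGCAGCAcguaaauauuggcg

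The seed of miR-302b and miR-302d is AAGUGCU and that of miR-302c-3p, which starts a base later, AGUGCUU, while miR-106a, miR-20b and miR-17 carry AAAGUGC, and AUUGCAC is shared by miR-367 and miR-363. Mir302d had 6.49, 6.85 and 7.08 in the pulsed arrays, against 5.34, 5.66 and 5.54 at day 0 (1.30 ± 0.16, adjusted p = 6.58e-07). Mir302a had 5.21, 6.41 and 6.41 in the pulsed arrays, against 4.37, 4.61 and 4.32 at day 0, with 1 pulsed array well below the other 2, and still no overlap with day 0 (1.58 ± 0.3). The calls of Mir302b (1.06 ± 0.3, adjusted p = 0.01) and Mir367 (0.85 ± 0.29, adjusted p = 0.0323) were lost without replicate 2 or 3 of the pulsed cells, and that of Mir367 without any 1 of the day 0 arrays. On the X chromosome, Mir106a measured 6.40, 6.65 and 6.47 in the pulsed arrays, against 5.38, 5.65 and 4.97 at day 0 (1.17 ± 0.16, adjusted p = 3.74e-06), and Mir363 6.72, 7.13 and 6.97 in the pulsed arrays, against 5.64, 5.83 and 5.28 at day 0 (1.36 ± 0.24).

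Of 6 measured genes with the seed AAAGUGC, 4 rose, by 0.29 to 1.17, and the other 2, Mir20a (0.18) and Mir93 (0.18), were not called. The Mir17 locus itself, on chromosome 14, had 2 of 5 members called: Mir17 (0.44 ± 0.12, adjusted p = 0.00624), a call lost without replicate 3 of day 0, and Mir19b-1 (0.35), lost without several single arrays. Of 6 genes with the seed AGCAGCA, which marks the miR-15 and miR-16 family, Mir15b (6.86, 6.83 and 6.69 in the pulsed arrays, against 5.36, 5.91 and 5.22 at day 0; 1.30 ± 0.22), Mir16-2 (0.83) and Mir15a (0.57) rose, and Mir16-1 (0.07), next to Mir15a, was not called. The seed AGUGCAA was held by Mir130a, Mir130b and Mir301, which all rose, by 0.36 to 0.94, with a call for Mir130b that was lost without replicate 1 of the pulsed cells or replicate 3 of day 0. Near Meg3 on chromosome 12, 11 of the 29 measured genes of the locus at chr12:109709060-109743496 rose and none fell, led by Mir300 (1.12), where 14.4% of all clusters tested rose. Of these 11 calls, 7 were lost when some single array was left out, 6 of them without replicate 3 of day 0. Of 9 let-7 genes with the seed GAGGUAG, 2 rose and 1 fell, each with a call that single arrays decided.

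**Figure D4:**
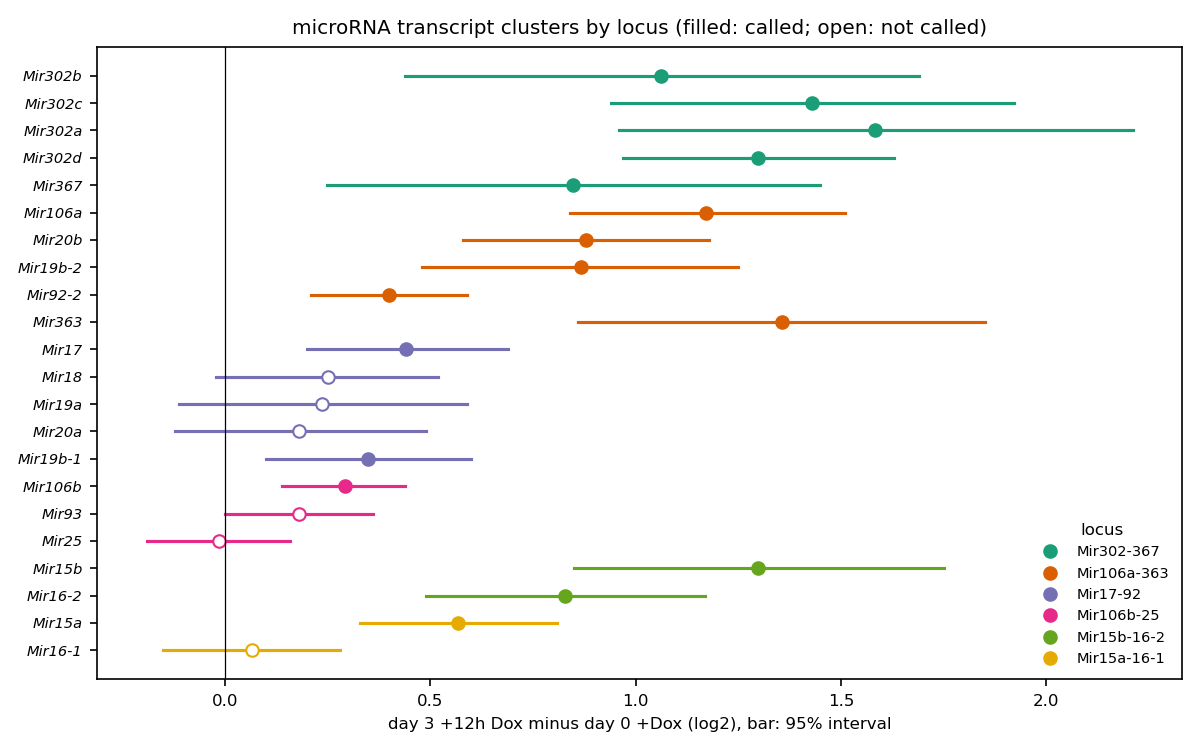
Difference between day 3 +12h Dox and day 0 +Dox (log2, horizontal axis) with its 95% interval for 22 microRNA clusters, coloured by locus. Filled points were called and open points were not. All 5 members of the Mir302 locus and of the Mir106a locus were called higher, with 2 of 5 at the Mir17 locus.

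Set beside the time-matched control, few clusters were called for the pulse itself. With 3 arrays per group, a cluster that was not called may still differ. In day 3 +12h Dox against day 3 -12h Dox, 9 of 23385 clusters (0.0385%) were called, Nanog higher and 8 genes lower, and 3408 had an unadjusted p under 0.05. Nanog was higher by 0.80 ± 0.08 (adjusted p = 4.61e-06). The count moved widely with the processing: it was 1 without replicate 2 of the controls, the array of widest spread among the 3, 1 without replicate 1 or 3 of the pulsed cells, 3 and 2 without replicates 1 and 3 of the controls, 4 without replicate 2 of the pulsed cells, 2 with median centring and 1865 with arrays weighted by quality. Nanog was called in every one of these settings. The time-matched control differed from day 0 at 8507 clusters (36.4%), in a comparison that shares the day 0 arrays with that of the pulsed cells. The pulse comparison in turn shares the pulsed arrays, so values are given side by side.

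The 8 genes lower in pulsed cells than in their control fell by 0.34 to 0.66, and each of their calls was lost without replicate 2 of the controls or without replicate 1 or 3 of the pulsed cells. Lpar4, a receptor for lysophosphatidic acid, had 8.26, 8.63 and 8.45 in pulsed cells, 9.02, 9.24 and 9.05 in the control and 8.36, 8.27 and 8.29 at day 0, so the pulsed arrays overlapped day 0 and lay below the control. Slc38a2, a transporter of neutral amino acids, had 11.20, 11.27 and 11.15 in pulsed cells, 11.51, 11.64 and 11.54 in the control and 11.41, 11.38 and 11.28 at day 0. Its difference from day 0 was -0.15 ± 0.06 (adjusted p = 0.0768), on the other side of day 0 from the control. Flvcr1, a heme exporter, differed from day 0 by -0.16 ± 0.086 in pulsed cells (adjusted p = 0.189) and by 0.33 ± 0.086 in the control. A second cluster of Flvcr1 differed from day 0 by 0.05 in pulsed cells and was not called.

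The other 5 genes remained away from day 0 after the pulse. Wnt8a was 0.53 above day 0 in pulsed cells and 1.10 in the control, and Ap3b2, an adaptor subunit of neurons, 0.60 and 1.07. Fgfr2, a receptor for fibroblast growth factors, stood 0.33 and 0.70 above day 0, Gja1 (connexin 43) 0.48 and 0.83, and Slc40a1 2.32 and 2.79. Of the naive genes, Nanog alone was called for the pulse. Prdm14 had a pulse effect of 0.36 ± 0.075 (limma adjusted p = 0.0705). The effect was 0.31 ± 0.093 for Klf4 (adjusted p = 0.171) and 0.27 ± 0.11 for Esrrb (adjusted p = 0.246). It was 0.36 ± 0.097 for Zfp42 (adjusted p = 0.148) and 0.13 ± 0.074 for Mras (adjusted p = 0.427). The median pulse effect over the 27 naive genes was 0.17, against -0.0092 over all clusters. For Otx2 it was -0.24 ± 0.11 and for Krt18 -0.12 ± 0.075, neither called, so both stood 1.80 and 2.03 above day 0 with the pulse and 2.04 and 2.15 without it.

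**Figure D5:**
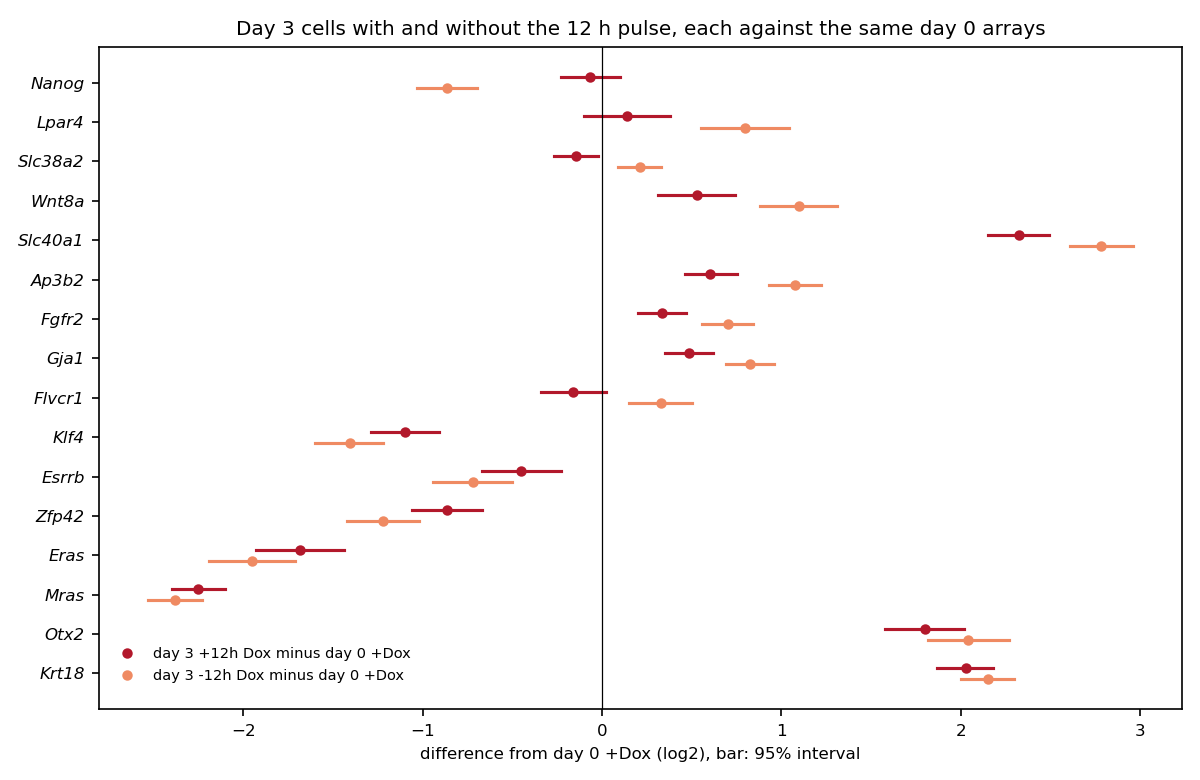
Differences from day 0 +Dox (log2, horizontal axis) with 95% intervals for 16 genes, in day 3 +12h Dox (red) and in day 3 -12h Dox (orange), both against the same 3 day 0 arrays. The interval of the pulsed cells reached 0 for Nanog, Lpar4 and Flvcr1, and both intervals of Krt18, Otx2, Slc40a1, Mras and Eras lay far from 0.

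The cells pulsed at day 1 had been without doxycycline for 1 day, and 2793 clusters (11.9%) differed between them and the pulsed cells of day 3, 1523 higher and 1270 lower at day 3, with 37 at least 2-fold apart. Nanog was 10.97 in day 3 pulsed cells and 11.09 in day 1 pulsed cells and was not called (-0.12 ± 0.08, adjusted p = 0.407). The keratins were higher at day 3, Krt18 by 1.80 ± 0.075 (adjusted p = 2.78e-15), Krt7 by 1.58 and Krt8 by 1.38. Krt18 had 11.29, 11.40 and 11.48 in day 3 pulsed cells, against 9.59, 9.49 and 9.71 in day 1 pulsed cells. At day 0 it stood at 9.42, 9.37 and 9.30. Mir15b (1.67) and Meiob (1.5) were the other largest rises. Ina (-1.34), Myc (-1.27), Neurod1 (-1.19), Spink1 (-1.19) and Ccnd1 (-1.10) were lower.

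Over the pulsed cells of days 1, 3 and 5, Krt18 stood at 9.60, 11.39 and 12.59, and Igf2 at 8.93, 10.29 and 12.33, so that day 3 lay between the other 2 days. Pou5f1 was 12.24, 11.95 and 11.27. Otx2 did not follow that order, with 9.46, 9.97 and 9.14, and neither did Mir302a, with 5.95, 6.01 and 4.44. These levels are given as values and were not tested across the 3 days.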

How the data were processed

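RNA of 30 samples in 10 groups of 3 was hybridised to Affymetrix Mouse Gene 1.0 ST arrays. Per the submitters' processing notes, the authors made the deposited values with RMA in Affymetrix Expression Console. The deposited values are log2 intensities, 1 per transcript cluster. Versions, annotation release and genome build are not given in the sources used here.

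Of 28815 clusters, 21780 carried 1 gene symbol, 1605 several and 5430 none in the platform annotation. The 23385 with a symbol were tested with limma 3.58.1 in R 4.3.3, fitting 1 mean per group over all 30 arrays, with Benjamini-Hochberg adjustment and a threshold of 0.05. Intervals are 95% intervals from that fit. The fit was tested on simulated data with known changes. Array values have no counted depth, so the number of arrays limits precision.

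A gene with several clusters is given by its brightest, and a cluster with several symbols is not named. Named by rule are Nanog, the 12 largest rises and falls without overlap, up to 5 called members per direction of each list, a core set, called microRNAs, the pulse effects, and the 5 largest differences per direction from day 1 pulsed cells. Other list members are named with values seen. The members and all 30 lists, of which 526 of 566 entries were matched, were chosen with earlier results of these data known. Sequences came from RefSeq (GRCm38.p6), matched by symbol. Alternatives were moderation, array weights, centring, quantile normalization, filters, covariates, a replicate block and left-out arrays.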

Additional observations from a re-analysis of the deposited data

How the results depend on the processing

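Against day 0, the count of 5917 clusters moved by more than 1.5 times with arrays weighted by quality, which gave 8984 clusters, 3989 of them lower, and with a 2-fold minimum, which by construction left 219. Leaving out each array in turn gave 4719 to 5435. For the pulse effect, the count of 9 was 43 with trended and robust moderation, 1865 with array weights, 2 with median centring, 26 with quantile normalization, 60 without the dimmest 40% of clusters, 67 with the interquartile range of each array as a covariate and 2 without the 4 widest arrays. Leaving out each array in turn gave 1 to 11. Against day 1 pulsed cells, the count of 2793 was 6684 with array weights and 4195 with the interquartile range as a covariate, and 1884 to 2759 with each array left out. The time-matched control against day 0 gave 8507, and 6784 to 8422 with each array left out. Leaving out the 4 widest arrays, the control arrays and the day 1 arrays was chosen after seeing the data. The cause of these changes was not tested.

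Same-numbered arrays of the pulsed and day 0 groups did not deviate together (correlations of 0.0458, 0.0226 and -0.0183). The labels do not say whether the numbers pair the samples, and these values cannot settle it. With the replicate block, 5815 clusters were called against day 0 and 10 for the pulse. Of 255 named genes, 56 lost their call against day 0 under at least 1 alternative, all 56 of them when 1 array was left out, and none reversed. Among the lists, the members lower in the respiratory chain were 7 in place of 11 without replicate 1 of the pulsed cells, those lower in iron and heme 0 in place of 2 without the same array, and those higher in cholesterol synthesis 0 in place of 2 without replicate 2 or 3 of the pulsed cells, without replicate 3 of day 0 or with median centring. The number of arrays, 3 per group, limits what can be called.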

Other observations

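Several genes past a 2-fold difference from day 0 stood outside the lists and the naming rule, and they were picked here after their values had been seen. Podxl, a sialomucin of the cell surface, was higher in pulsed cells by 1.60, Anxa2, an annexin of membranes, by 1.62, Pla2g7, a secreted phospholipase, by 1.61, Bhlhe40, a transcriptional repressor of the clock and of low oxygen, by 1.51 and Pygl, the glycogen phosphorylase of liver, by 1.38. The enzymes Egln1 (1.14), P4ha2 (1.06) and Ero1a (1.05), which are known targets of low oxygen in mammals, were also called higher. Among genes called lower were Inhbb, an activin subunit (-1.34), Sgk1, a kinase (-1.26), Sall1, a relative of Sall4 (-1.08), Nefl, a neurofilament (-1.04), and Atp5k, of the ATP synthase (-1.07).

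Vwa3b is represented by 8 clusters that differed from each other. Those numbered 10345546, 10345550 and 10345548 fell by 1.89, 1.86 and 1.70 in pulsed cells, the brightest, 10345552, fell by 0.75, and the remaining 4 differed by -0.27 to -0.21.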
